A study of Rattus norvegicus with 12 samples.

Results

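Kupffer cells, the resident macrophages of the liver, of LEW rats carried more RNA of 7 genes than those of DA rats in dissociated liver and in an immune-enriched preparation, while in isolated nuclei 4 of the 7 had this order, and these 7 of the 32883 genes in the count tables are described here. They are Lilrb3l, Scimp, Ms4a6a, Timp2, Hk2, AC114233.2 and LOC100360791. They were chosen because their counts in Kupffer cells were higher in LEW than in DA, so the strain difference in Kupffer cells is given as a description, with no test. The paper already shows Timp2 among its LEW-enriched myeloid genes from dissociated liver. With a mixed model it also lists Timp2 and Lilrb3l among the genes that differed most between strains in its myeloid nuclei. What the choice did not use is the level of each gene in the other cells of the liver, so Kupffer cells of DA rats were also compared with the other cells of the same rats.

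The counts came from healthy male rats. Dissociated total liver homogenate (TLH) of 2 DA/OlaHsd and 2 LEW/SsNHsd rats was sequenced as single cells with 10x 3′ v2 chemistry, and frozen liver from 2 rats of each strain was sequenced as single nuclei with 3′ v3 chemistry. The methods call these additional rats, but the names of the nuclei tables carry the animal numbers of the TLH rats, so nuclei and TLH may come from the same animals. An immune-enriched preparation, in which parenchymal cells and red cells were depleted, was made from 1 rat of each strain, also with 3′ v3 chemistry. Visium spatial counts came from 2 sections of Wistar liver, a strain from which no single cells were analysed here. The labels name no transgene and no treatment. The labels of the TLH rats give an age of 8 to 10 weeks, but the names of the deposited TLH tables hold 10 weeks for DA and 13 weeks for LEW. Strain and age as given in those names cannot be told apart in TLH, while both immune-enriched tables carry 9 weeks. The methods of the paper give a higher age than any of these and state that DA and LEW rats were matched for age.

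The libraries held 61441846 to 92484173 unique molecular identifiers (UMIs, each 1 captured RNA molecule) for TLH, 8039397 to 15186970 for nuclei, 48255870 and 60005133 for the immune-enriched rats, and 34449562 and 34827603 for the Wistar sections. Cells were assigned to a class by how many distinct markers of that class they held, and no member was a marker. The Kupffer gate asked for 5 of 8 markers (Clec4f, Vsig4, Marco, Cd5l, Cd163, C1qa, C1qb and C1qc), and held 441 and 546 DA and 311 and 332 LEW cells in TLH, 36 and 62 DA and 45 and 50 LEW nuclei, and 67 DA and 109 LEW immune-enriched cells. Cd68, a macrophage gene that was no marker of the gate, stood at 371 and 517 CPM (UMIs of the gene per 1000000 UMIs of the class) in DA and 796 and 948 in LEW TLH Kupffer cells, against 53 to 239 in the other myeloid class. That class, named Lyz2 myeloid from Lyz2, Cd74 and S100 genes, held 91 and 85 DA and 49 and 37 LEW cells in TLH.

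Kupffer cells line the sinusoids, where they clear particles, bacteria and aged red cells from portal blood, and they read these signals through balanced activating and inhibitory receptors. Lilrb3l is named as a member of the leukocyte immunoglobulin-like receptor family, whose B-type receptors carry inhibitory motifs that recruit the phosphatases Ptpn6 and Ptpn11. In RefSeq this name is a synonym of 2 genes, Pira2, of the activating type, and Pirb, of the inhibitory type, so the type of Lilrb3l is not known here. Scimp is a transmembrane adaptor that brings the Src-family kinase Lyn to Toll-like receptors in macrophages. Ms4a6a is a membrane protein of the MS4A family, whose genes lie in a cluster. Timp2 is a secreted inhibitor of matrix metalloproteinases, and Hk2 is a hexokinase that catalyses the first step of glycolysis. AC114233.2 is listed only by a clone name. LOC100360791 is named Tpt1l3 in RefSeq, a protein-coding gene on chromosome 1 named after Tpt1, the abundant translationally controlled tumor protein. Lilrb3l is named in a multigene family and LOC100360791 after Tpt1. Reads of either could be shared with relatives, and their values are uncertain in that respect.

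RefSeq windows of the GRCr8 build were matched for 5 of the 7 members, and the 250 bases before the start of 4 of them are shown because each held one of the motifs searched, while that of LOC100360791 held none. Ms4a6a lies at chr1:217839574-217839823, Hk2 at chr4:116841276-116841525, Scimp at chr10:56026358-56026607 and Timp2 at chr10:104089215-104089464, all on the minus strand. Capitals mark GAGGAA, the core that the myeloid factor PU.1 binds, or the GC box GGGCGG, which reads CCGCCC where it lies on the other strand.
Ms4a6a: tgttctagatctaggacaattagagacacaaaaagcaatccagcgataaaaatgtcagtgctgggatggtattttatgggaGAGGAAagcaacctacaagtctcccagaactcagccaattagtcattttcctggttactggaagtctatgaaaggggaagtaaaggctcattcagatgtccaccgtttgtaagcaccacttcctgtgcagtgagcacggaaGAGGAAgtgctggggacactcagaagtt
Hk2: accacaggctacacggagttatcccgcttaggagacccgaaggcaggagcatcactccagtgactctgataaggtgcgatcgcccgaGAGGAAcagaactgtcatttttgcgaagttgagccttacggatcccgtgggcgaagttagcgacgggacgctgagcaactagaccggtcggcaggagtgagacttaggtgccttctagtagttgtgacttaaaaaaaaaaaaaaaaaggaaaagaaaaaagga
Scimp: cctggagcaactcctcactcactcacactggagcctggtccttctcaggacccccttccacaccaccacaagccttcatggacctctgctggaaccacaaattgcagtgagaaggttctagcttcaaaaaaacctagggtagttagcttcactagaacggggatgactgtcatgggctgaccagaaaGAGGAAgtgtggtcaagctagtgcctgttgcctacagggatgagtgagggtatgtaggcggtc
Timp2: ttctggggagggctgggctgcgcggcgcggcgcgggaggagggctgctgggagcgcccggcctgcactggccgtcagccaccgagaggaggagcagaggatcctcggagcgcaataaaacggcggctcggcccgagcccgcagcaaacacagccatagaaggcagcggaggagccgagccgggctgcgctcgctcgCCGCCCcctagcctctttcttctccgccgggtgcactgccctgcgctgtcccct

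GAGGAA was found 2 times before Ms4a6a and 1 time each before Hk2 and Scimp, and not before Timp2 or LOC100360791. Of all 33469 windows of 250 bases, 23.3% held it on either strand, so a match by itself is common. The Timp2 window, with 72.0% G and C, held 1 GC box, which 30.5% of all windows held. ACGTG, a core of hypoxia response elements, and TATAAA were in none of the 5 windows, against 16.6% and 12.9% of all windows. These matches are letters in a window and say nothing of binding.

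In TLH Kupffer cells, both LEW rats lay above both DA rats for all 7 genes. Of the 6768 genes tested there, 27.5% had this order, and 3.0% passed an adjusted p of 0.05 as higher in LEW with edgeR's quasi-likelihood test. These shares are given for scale, since the 7 genes were picked on this comparison. All 7 passed the filter on low counts in TLH, Lilrb3l and LOC100360791 through their LEW counts alone.

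Among the membrane proteins, Lilrb3l gave 5.26 and 7.15 CPM in the DA rats, from 5 and 12 UMIs, and 56.2 and 69.0 CPM in the LEW rats. The ratio of the strain means was 10.1, and the ratio of summed counts had a 95% counting interval of 5.81 to 17.0. Ms4a6a stood at 92.6 and 92.4 CPM in DA and 388 and 319 in LEW, a ratio of 3.82. The adaptor Scimp gave 57.9 and 41.7 CPM in DA and 116 and 139 in LEW, a ratio of 2.56 and the smallest of the 7. Each of these 3 genes was detected in both DA rats. Since the genes were picked on this contrast, the width of the gap between the strains is no support for a difference.

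Timp2, the secreted inhibitor, gave 135 and 99.5 CPM in the DA rats and 508 and 519 CPM in the LEW rats, a ratio of 4.38. Hk2 stood at 41.1 and 28.6 CPM in DA and 151 and 93.5 in LEW, a ratio of 3.51. AC114233.2 gave 35.8 and 52.4 CPM in DA and 288 and 248 in LEW, a ratio of 6.07. LOC100360791 was nearly absent from DA, with 1 UMI in each rat (1.05 and 0.596 CPM), and stood at 64.2 and 91.7 CPM in LEW. From 2 DA UMIs its summed ratio was 102, with a counting interval of 27.8 to 848.

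**Figure D1:**
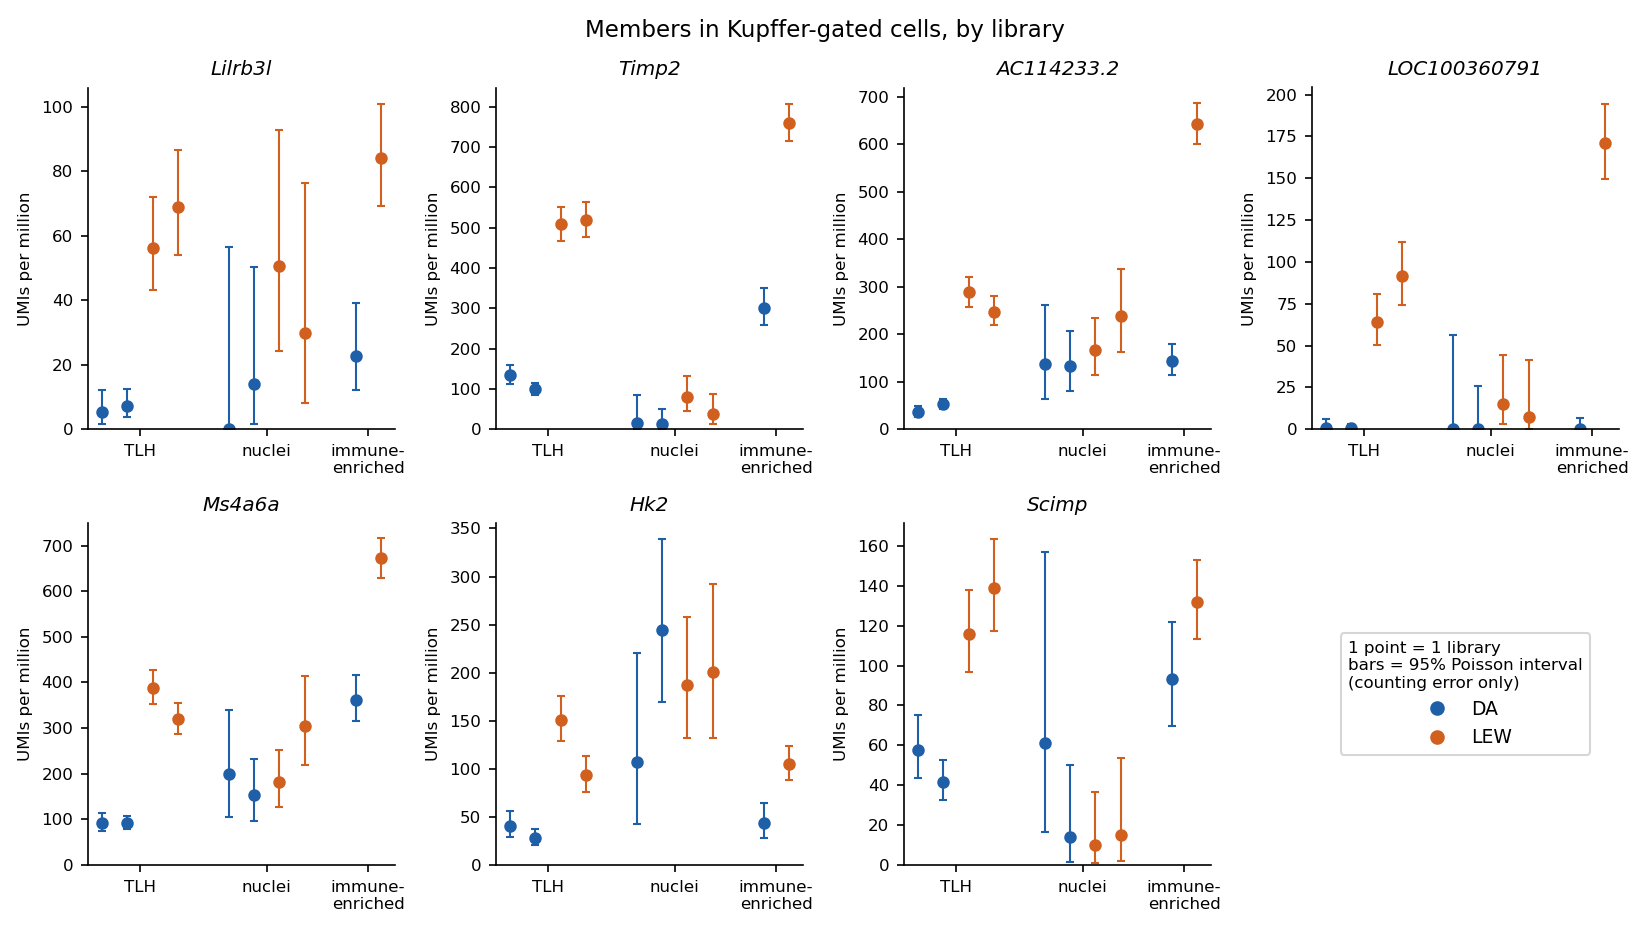
Level of each of the 7 genes in Kupffer-gated cells or nuclei, in CPM, 1 point per rat, for TLH, immune-enriched cells and nuclei, DA beside LEW. The LEW points lie above the DA points for all 7 genes in TLH and in the immune-enriched rats, and for 4 of 7 in nuclei.

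The higher level went with more positive cells. Each Kupffer cell was thinned to 1000 UMIs, without leaving out any cell, because median depth was 2041 and 2917 UMIs in DA and 3525 and 3076.5 in LEW. Timp2 was then seen in 11.6% and 8.61% of DA and 34.9% and 36.5% of LEW Kupffer cells (22.4%, 22.5%, 67.2% and 68.1% before thinning). Ms4a6a was seen in 8.83% and 8.56% against 29.3% and 25.8% (17.7%, 23.6%, 64.3% and 57.8% unthinned), and AC114233.2 in 3.29% and 5.03% against 20.6% and 19.7% (6.58%, 13.9%, 48.2% and 46.4% unthinned). In hepatocyte-gated cells, with medians of 1789 to 2529.5 UMIs, the thinned share of these 3 genes was between 0.118% and 1.44% in every rat. The DA Kupffer cells lay above those shares for each of the 3.

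Lilrb3l was at the edge of detection in DA, in 0.466% and 0.691% of thinned Kupffer cells against 4.95% and 6.71% in LEW (0.907%, 2.2%, 17.4% and 19.9% unthinned). Its hepatocyte share was 0.0106% to 0.0661%. Hk2 was in 3.88% and 2.62% against 12.7% and 8.36%, and Scimp in 5.39% and 4.2% against 10.5% and 12.4%, with hepatocyte shares of 0.074% to 0.272% for the pair. Without thinning, Hk2 was in 7.71% and 8.06% of DA and 34.7% and 22.6% of LEW cells, and Scimp in 11.1% and 11.9% against 33.8% and 34.3%. LOC100360791 had shares in Kupffer cells no higher than in hepatocytes, 5.92% and 8.97% against 6.56% and 9.35% in the LEW rats after thinning (20.6% and 25.6% of LEW Kupffer cells unthinned).

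Markers moved with strain in the gate. The 8 Kupffer markers, all detected in every library, summed to 14555 and 17067 CPM in DA and 24705 and 26467 in LEW TLH Kupffer cells, whereas in nuclei they summed to 12641 and 8467 in DA and 5470 and 7569 in LEW. Per UMI of those markers, all 7 genes still lay higher in both LEW TLH rats, with log2 ratios of strain means from 0.63 for Scimp to 5.82 for LOC100360791. The 11 Lyz2 myeloid markers, all detected, summed to 2670 and 2196 CPM in DA and 2786 and 3343 in LEW TLH Kupffer cells, and the 12 hepatocyte markers to 54752 and 67494 against 51648 and 56857. Their part in the strain difference of the 7 genes was not tested.

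The immune-enriched Kupffer cells, 1 rat per strain and thus without a test, had the LEW rat above the DA rat for all 7 genes. Of 7949 genes with at least 10 UMIs there, 54.1% had this order. AC114233.2 stood at 144 CPM in DA and 642 in LEW, a ratio of 4.45 with an interval of 3.55 to 5.65, and Lilrb3l at 22.9 and 84.0, a ratio of 3.68 (2.07 to 7.11). Timp2 gave 301 and 759 CPM, Hk2 44.0 and 105, Ms4a6a 362 and 672, and Scimp 93.2 and 132. The Scimp interval, 1.04 to 1.96, came closest to 1. LOC100360791 had 0 UMIs in DA and 232 in LEW, at least 32.4-fold higher against 3 counts. Except for this bound, every ratio was smaller than its TLH ratio, though chemistry and preparation differed as well. In these cells the hepatocyte markers summed to 842 CPM in DA and 18372 in LEW and the Lyz2 myeloid markers to 7669 and 3929, and their part in the ratios was not tested.

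In nuclei, with 36 to 62 Kupffer nuclei per rat, counts were low. Both LEW rats lay above both DA rats for 4 of 7 genes. Of the 2827 genes past the count filter, 19.6% had this order and 0.531% passed the test as higher in LEW. Only AC114233.2, Ms4a6a and Hk2 passed that filter, and of these only AC114233.2 had this order. The other members with this order had too few counts for the filter, so the share of 19.6% does not cover them. AC114233.2 gave 138 and 133 CPM in DA and 167 and 238 in LEW. The ratio of the strain means was 1.5, and the ratio of summed counts had a counting interval of 0.92 to 2.36. Ms4a6a (199 and 153 against 182 and 305 CPM) and Hk2 (107 and 244 against 187 and 201 CPM) overlapped between strains. Timp2 rested on 3 DA and 21 LEW UMIs and Lilrb3l on 2 and 14, LOC100360791 on 0 and 4, and Scimp, which lay lower in LEW on average, on 6 and 4. A strain difference of the size seen in TLH was outside the counting interval of the summed ratio for AC114233.2, Ms4a6a and Hk2. The upper bounds were 2.36, 2.12 and 1.45. These intervals cover counting error and not the spread between rats. The Kupffer markers summed to 12641 and 8467 CPM in DA but 5470 and 7569 in LEW Kupffer nuclei. This differs from TLH, where the sums were higher in LEW, and its part in the nuclei ratios was not tested. Cell barcodes shared by pairs of nuclei libraries numbered 8 to 24.

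The next comparison asked where else in the liver these genes were found. In DA rats the 7 genes were compared between Kupffer cells and 5 other classes of TLH, in 1 edgeR fit with the rat as a block. The other DA cells played no part in the choice, but the DA Kupffer values did, as the low side of it. In 23 of the 35 gene and class pairs the Kupffer level was higher at an adjusted p of 0.05, and in none was it lower. The Kupffer cells were higher for 6 of 7 genes against endothelial cells, hepatocytes and mesenchymal cells, where 12.4%, 21.9% and 13.4% of all 7653 genes were higher. Against NK-like cells 3 of 7 were higher (7.06% of all genes), and against Lyz2 myeloid cells 2 of 7 (4.81%). For LOC100360791 none of the 5 comparisons passed, with adjusted p from 0.288 to 0.92. The fit held the LEW libraries too, so genes scarce in DA could enter it through LEW counts, and this was so for Lilrb3l and LOC100360791. With the DA libraries alone, these 2 genes did not pass the filter on low counts, and of the 25 pairs of the other 5 genes 20 were higher in Kupffer cells and none lower. Of all 7347 genes in that fit, 909 were higher than in endothelial cells, 1731 than in hepatocytes and 1008 than in mesenchymal cells. Against NK-like cells 540 were higher, and against Lyz2 myeloid cells 365. In nuclei the DA libraries alone left AC114233.2, Ms4a6a and Hk2, with 9 of 9 pairs higher. Of all 4973 genes there, 369, 855 and 436 were higher in Kupffer nuclei than in endothelial, hepatocyte and mesenchymal nuclei.

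AC114233.2 was the only one of the 7 that was higher in DA Kupffer cells than in all 5 other classes. It had 0 UMIs in DA Lyz2 myeloid and in DA NK-like cells, so that the DA Kupffer level was at least 6.77-fold and 6.27-fold higher against 3 counts over the DA group, with adjusted p of 3.48e-07 and 9.45e-07. DA endothelial cells and hepatocytes stood at 1.07 to 1.51 CPM, against 35.8 and 52.4 in Kupffer cells. Of all AC114233.2 UMIs in kept cells, Kupffer-gated cells held 57.6% and 69.3% in DA and 80.1% and 74.4% in LEW, although they held 7.38% to 11% of all UMIs. In DA nuclei, 9 of 12 tested pairs were higher in Kupffer nuclei: AC114233.2, Ms4a6a and Hk2 passed against endothelial, hepatocyte and mesenchymal nuclei (6.23%, 14.2% and 7.24% of 6244 genes), and Timp2 passed against none of them. For AC114233.2 the log2 differences of 4.29 ± 0.72 (SE) against endothelial and 4.86 ± 0.55 against hepatocyte nuclei had adjusted p of 2.59e-06 and 1.19e-11.

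Ms4a6a was found in both myeloid classes, and Timp2 in both of them and in mesenchymal cells. DA Lyz2 myeloid cells held 68.8 and 111 CPM of Ms4a6a, the same range as DA Kupffer cells, and the log2 difference of -0.05 ± 0.26 did not pass (adjusted p = 0.959). Ms4a6a had 0 UMIs in DA NK-like cells and lay at 1.43 to 4.84 CPM in the DA endothelial, mesenchymal and hepatocyte classes. In the immune-enriched rats, conventional dendritic cells, of which there were only 12 in DA and 4 in LEW, gave 578 and 664 CPM of Ms4a6a, close to the 672 CPM of LEW Kupffer cells. Timp2 was at 68.8 and 73.7 CPM in DA Lyz2 myeloid cells, and Kupffer cells were higher by a log2 of 0.62 ± 0.27 that did not pass (adjusted p = 0.145). Mesenchymal cells, a matrix-producing class, held 42.0 and 52.7 CPM of Timp2 in DA, and Kupffer cells exceeded them by a log2 of 1.21 ± 0.19 (adjusted p = 1.06e-08). In the immune-enriched DA rat the order was the opposite, with 1393 CPM in 12 mesenchymal cells, from 82 UMIs, against 301 CPM in Kupffer cells. In DA nuclei the order was not resolved, since Timp2 gave 13.8 and 17.2 CPM in mesenchymal and 15.3 and 13.9 CPM in Kupffer nuclei (log2 difference -0.22 ± 1.26, adjusted p = 0.953).

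Hk2 and Scimp were found in NK-like cells too. Hk2 was at 24.7 and 26.9 CPM in DA NK-like and 68.8 and 22.1 CPM in DA Lyz2 myeloid cells, and neither differed from Kupffer cells past the threshold (log2 of 0.45 ± 0.49 and -0.32 ± 0.41, adjusted p = 0.709 and 0.781). Endothelial cells and hepatocytes held at most 2.14 CPM of Hk2 in DA. Scimp was at 34.5 and 26.9 CPM in DA NK-like cells (log2 difference 0.69 ± 0.43, adjusted p = 0.397). It was lower in DA Lyz2 myeloid cells, 21.2 and 7.37 CPM, where the Kupffer excess of 1.84 ± 0.53 passed (adjusted p = 0.00823). That call was lost without either DA rat, with adjusted p of 0.0558 without DA-1 and 0.456 without DA-2. In the immune-enriched rats NK-like cells had more Scimp than Kupffer cells in each strain, 172 CPM in DA and 147.5 in LEW against 93.2 and 132.

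In DA TLH cells, Lilrb3l lay mainly in myeloid cells as far as its few counts show. DA NK-like and endothelial cells had 0 UMIs, hepatocytes 0.126 and 0.193 CPM, and Lyz2 myeloid cells 0 and 11.1 CPM from 3 UMIs. The Lyz2 myeloid and Kupffer levels of DA could not be separated (log2 difference -0.07 ± 1.04, adjusted p = 0.994). It entered the comparison with other DA classes only through its LEW counts, so its calls there are no support for a higher Kupffer level, and without DA-2 those against endothelial and mesenchymal cells were lost (adjusted p = 0.233 and 0.252). In the deeper immune-enriched cells, Lyz2 myeloid cells stood above Kupffer cells in both strains, at 49.3 CPM from 20 UMIs in DA and 208 CPM from 65 UMIs in LEW. Some LEW classes outside the myeloid ones held a few UMIs. Immune-enriched B cells had 12.0 CPM from 2 UMIs and endothelial cells 3.45 from 5, while NK-like, T and erythroid cells had 0. Endothelial nuclei of LEW had 5.39 CPM from 3 UMIs.

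**Figure D2:**
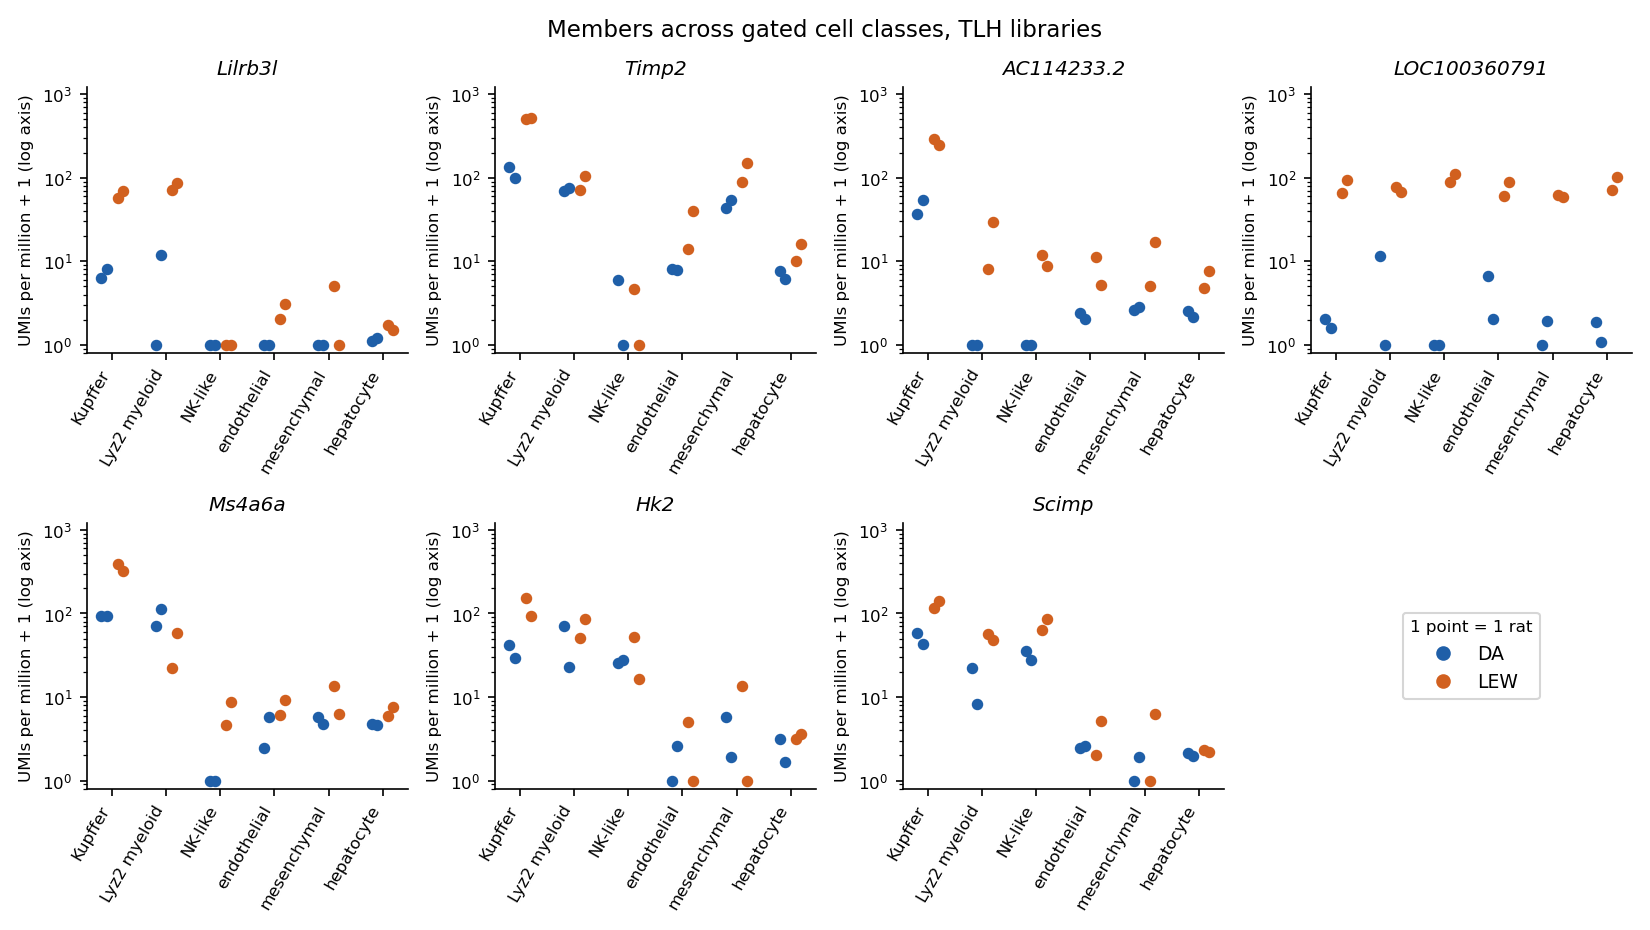
Level of the 7 genes in the gated classes of TLH, as CPM + 1 on a log axis, 1 point per rat, DA and LEW side by side. For 6 genes the LEW Kupffer points lie among the highest of the panel, and LOC100360791 has LEW points of 58.5 to 109 CPM in all classes.

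Whether other cells shared the strain difference was read from the same rats. Of 17 gene and class pairs outside Kupffer cells that passed the count filter in TLH, 5 were higher in LEW and none lower, and 4 of these 5 were LOC100360791. By class, the called genes were 1 of 2 tested in endothelial cells (1.12% of all genes tested were higher in LEW and 1.68% lower), 2 of 6 in hepatocytes (1.83% and 1.85%), 1 of 2 in mesenchymal cells (0.543% and 0.567%), 1 of 2 in NK-like cells (0.745% and 1.28%) and 0 of 5 in Lyz2 myeloid cells (0.897% and 0.399%). In the Lyz2 myeloid cells DESeq2 also called 0, and 3 of the 5 had an unadjusted p under 0.05 with edgeR, 2 of them higher in LEW. LOC100360791 passed the filter in each class through its LEW counts alone, so its calls are no support for a strain difference. Lilrb3l in Lyz2 myeloid, Scimp in NK-like and Timp2 in endothelial cells also passed through LEW counts alone. Ms4a6a in Lyz2 myeloid cells passed through its DA counts alone. None of these pairs was called, and their differences are no support either. Of the 12 pairs without LOC100360791, 1 was called. The 18 pairs left out had too few counts to test. In nuclei 1 of 3 pairs was called, again LOC100360791 through LEW counts alone, in hepatocytes (0.430% of all genes were higher and 0.631% lower), and 0 of the 2 others.

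In the Lyz2 myeloid cells, the neighbours of Kupffer cells in lineage, the genes went different ways. Timp2 stood at 68.8 and 73.7 CPM in DA and 70.3 and 104 in LEW, a log2 difference of 0.21 ± 0.38 (adjusted p = 0.88). Ms4a6a was lower in both LEW rats, 21.1 and 56.9 CPM from 3 and 6 UMIs against 68.8 and 111 from 13 and 30, with a log2 difference of -1.35 ± 0.54 that did not pass (adjusted p = 0.298). Ms4a6a passed the count filter there through its DA counts alone, so this difference is no support. The immune-enriched Lyz2 myeloid cells had the same order, 192 CPM in DA and 57.5 in LEW. Markers of conventional dendritic cells moved with it, from 445 and 512 CPM in DA to 239 and 228 in LEW TLH Lyz2 myeloid cells and from 544 to 147 in the immune-enriched rats, with 5, 5, 3 and 5 of 6 markers detected in TLH and 4 and 3 in the immune-enriched cells. Their part was not tested.

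Lilrb3l, by contrast, was high in LEW Lyz2 myeloid cells as well, at 70.3 and 85.4 CPM against 0 and 11.1 in DA. The log2 difference of 3.40 ± 0.87 did not pass over all genes (adjusted p = 0.11). Hk2 overlapped between strains there (68.8 and 22.1 against 49.2 and 85.4 CPM, adjusted p = 0.771). In NK-like cells Scimp gave 34.5 and 26.9 CPM in DA and 62.2 and 85.3 in LEW. This did not pass (log2 difference 1.1 ± 0.44, adjusted p = 0.234), and Scimp could be tested there through its LEW counts alone. In the immune-enriched rats the NK-like order was the opposite.

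The remaining call was AC114233.2 in hepatocytes, where DA held 1.51 and 1.16 CPM and LEW 3.77 and 6.69 (log2 difference 1.96 ± 0.42, adjusted p = 0.0445). The call was lost without each rat in turn, with adjusted p of 0.0509 to 0.179. Barcodes below the UMI limit, left out here, held AC114233.2 at 1.98 and 2.10 CPM in DA and 6.71 and 8.49 in LEW. These values lay above the hepatocytes of each of these rats. The paper counts the TLH barcodes as cells called by Cell Ranger. With medians of 1103 to 1581 UMIs, these barcodes can include shallow cells of any class, so they do not measure RNA outside cells alone. Timp2 in hepatocytes (6.69 and 5.21 against 9.18 and 15.1 CPM) and Ms4a6a (3.78 and 3.67 against 5.0 and 6.69 CPM) also lay below the values of those barcodes in the same rats, 6.48 to 24.1 and 4.03 to 9.50 CPM. Whether hepatocytes express these genes or carry RNA of other cells was not tested.

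Mesenchymal cells held more Timp2 than hepatocytes in every TLH rat. They gave 42.0 and 52.7 CPM in DA and 86.7 and 149 in LEW, and both LEW rats lay above both DA rats. The log2 difference of 1.28 ± 0.33 did not pass the threshold (adjusted p = 0.0725). In mesenchymal nuclei Timp2 gave 13.8 and 17.2 CPM in DA and 47.7 and 17.3 in LEW. The 12 and 11 mesenchymal cells of the immune-enriched rats had the other order, 1393 CPM from 82 UMIs in DA and 295 CPM from 9 in LEW.

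LOC100360791 had UMIs in each of the 6 compared classes of LEW TLH cells. Its level there was of the same order in every class, between 58.5 and 109 CPM, and its DA level was at most 10.6 CPM, from 2 UMIs. Barcodes below the UMI limit held it at the level of the classes, 65.6 and 88.4 CPM in LEW TLH against 0.762 and 0.247 in DA. They held 156 CPM in the immune-enriched LEW rat against 2.48 in DA, and 42.0 and 33.7 CPM in LEW nuclei against 0.333 and 0. Which classes express the gene and which carry its RNA from other cells was not tested.

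The DA counts were too few for a fitted difference, so summed ratios of LEW to DA are given with counting intervals. Endothelial cells had 6 UMIs in DA and 101 in LEW, a ratio of 29.5 (13.1 to 82.2), and hepatocytes 8 and 1251, a ratio of 185 (93.4 to 429). Mesenchymal cells had 1 and 26 UMIs, a ratio of 103 (16.9 to 4216), and hepatocyte nuclei 1 and 363, a ratio of 225 (40.1 to 8915). NK-like cells had 0 and 38, at least 13.4-fold higher against 3 counts over the DA group. The gene was picked as higher in LEW, and the classes of a rat share a library with its Kupffer cells. These ratios are thus a description and no support for a strain difference. Kupffer cells of LEW held 7.38% and 10.8% of its UMIs, close to the 7.83% and 11% of all UMIs that they held. In the immune-enriched LEW rat it reached 545 CPM in T cells, 313 in B cells and 312 in NK-like cells, whereas the DA rat held 0, 5.26 and 1.77.

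Tpt1, the gene it is named after, was abundant in both strains. In TLH hepatocytes Tpt1 stood at 1589 and 1498 CPM in DA and 2293 and 2216 in LEW, a log2 difference of 0.58 ± 0.12 (adjusted p = 0.0371). In immune-enriched Kupffer cells it was instead lower in LEW, 5612 CPM against 7459, while LOC100360791 was seen only in LEW. Per 1000 Tpt1 UMIs in the class, LOC100360791 gave a median of 27.9 over 12 LEW sums of a TLH rat and class (lowest 20.9, highest 45.1) and 0.428 over 12 DA sums (0 to 5.08). In the immune-enriched rats the median was 33.3 over 8 LEW classes (30.5 to 39.1) and 0.0329 over 8 DA classes (0 to 0.616). In nuclei it was 11.5 over 8 LEW sums (5.46 to 13.6) and 0 over 8 DA sums, with 1 UMI in all. The LEW and DA ratios did not overlap in any preparation. Sums of 1 rat share a library and are not replicates, so this too is a description. The RefSeq windows of the 2 genes, 250 bases before and 50 after the start, had a longest shared run of 41 bases. It began at base 175 of the Tpt1l3 window and base 243 of the Tpt1 window. How far the whole transcripts of the 2 genes resemble each other, and how the counting split reads that fit both, was not tested.

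**Figure D3:**
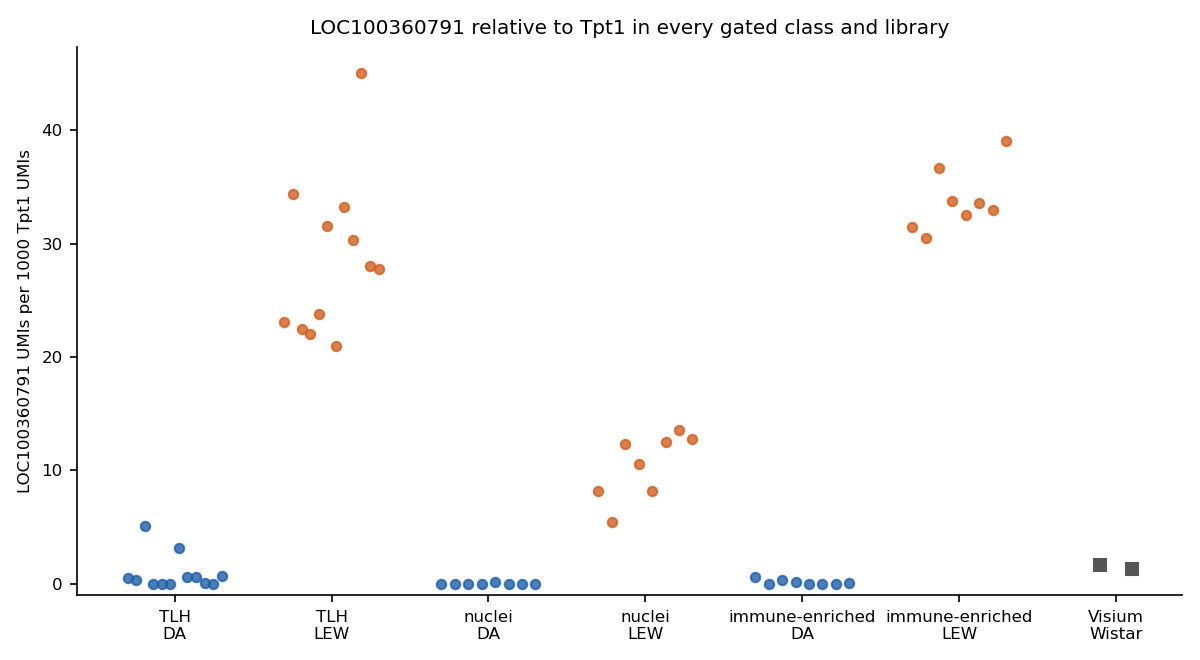
LOC100360791 UMIs per 1000 Tpt1 UMIs, 1 point per rat and gated class of at least 20 cells or nuclei, for DA and LEW in the 3 preparations, with the 2 Wistar sections as squares. LEW sums of TLH lie between 20.9 and 45.1 and DA sums between 0 and 5.08.

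In the Wistar sections, where a spot covers several cells, 6 of the 7 genes had a higher CPM in the spots richest in Kupffer markers than in the poorest, in each section. More Kupffer cells and more RNA per cell cannot be told apart in a spot. The share of all genes with this order was not counted, so counts of members in the sections are a description only. From the lowest to the highest quartile of the Kupffer marker share, Timp2 went from 10.1 (95% interval 8.02 to 12.5) to 24.1 CPM (20.9 to 27.6) in the A section, and the B section gave 12.4 and 22.7. AC114233.2 went from 4.49 to 12.3 and from 2.94 to 13.3 CPM, and Ms4a6a from 6.92 to 13.4 and from 6.36 to 15.4. The intervals of the 2 quartiles did not overlap for these 3 genes in either section.

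The scarcer genes moved less clearly. Scimp went from 1.09 to 3.68 and from 0.856 to 2.01 CPM, and Lilrb3l from 2.55 to 3.68 and from 1.96 to 4.03, with overlapping intervals in all but the Scimp values of section A. Hk2 had 12 UMIs in each section, 0 and 2 of them in the lowest and 4 and 6 in the highest quartile. LOC100360791 was flat, with 3.40 and 2.96 CPM for A and 2.08 and 2.01 for B. Per 1000 Tpt1 UMIs it gave 1.61 and 1.28 over the sections, values below every LEW sum. They lay within the DA range of TLH, 0 to 5.08, whose top rests on 2 UMIs. They were above the highest DA values of the immune-enriched classes (0.616) and of nuclei (0.149).

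**Figure D4:**
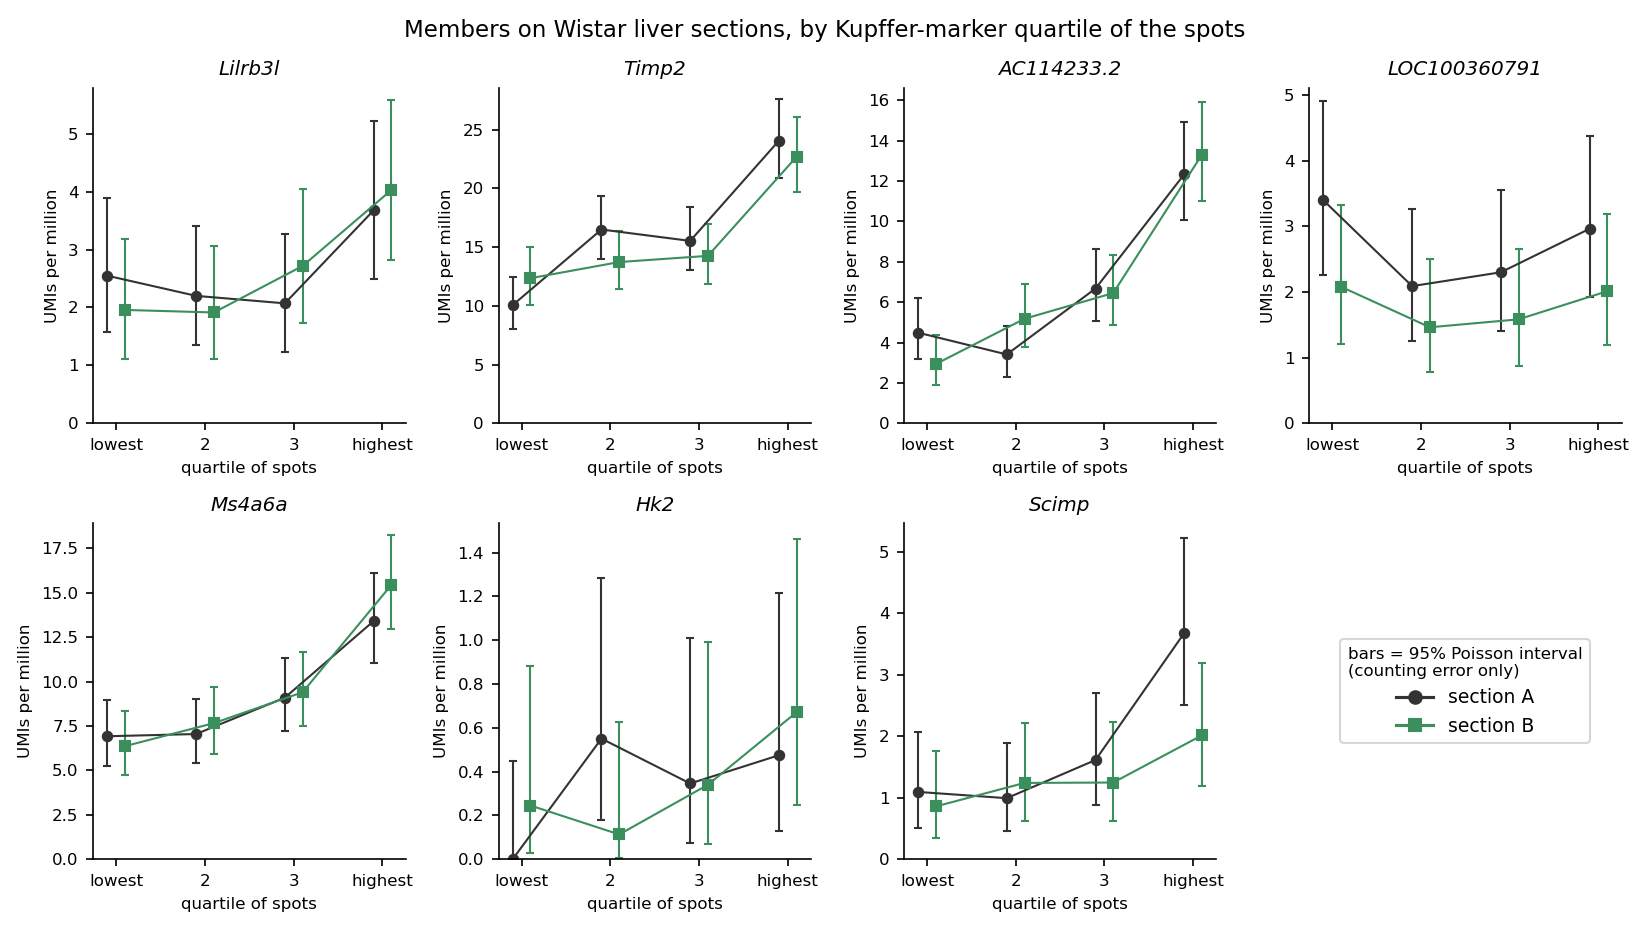
CPM of the 7 genes in 2 Wistar liver sections, by quartile of the share of a spot's UMIs from Kupffer markers, with exact 95% Poisson intervals that cover counting error only. Timp2, AC114233.2 and Ms4a6a have higher values in the highest than in the lowest quartile, and LOC100360791 is flat.

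Relatives of the 7 genes were read in the same Kupffer cells from 5 lists of 95 genes, none of them a member. Of 43 that could be tested in TLH, 3 were higher and 1 lower in LEW, beside 3.0% and 3.72% of all genes, and the median log2 difference was 0.24 against -0.01 over all genes. In nuclei 22 could be tested, of which 0 were higher and 1 lower with edgeR (0.531% and 0.495% of all genes), and 5 had an unadjusted p under 0.05, all lower, with a median of -0.32 against 0.02. DESeq2 called 0 of the 22, with 3 at an unadjusted p under 0.05.

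Among 12 tested inhibitory and LILR receptors and their phosphatases, 1 was higher and 1 lower in TLH (median 0.11). Siglec5, a sialic acid-binding receptor, was lower in LEW, at 46.3 and 63.8 CPM in DA and 7.14 and 8.50 in LEW (log2 difference -2.87 ± 0.32, adjusted p = 4.25e-05). Nuclei gave the same direction, 276 and 272 CPM against 15.2 and 81.9 (-2.53 ± 0.58, adjusted p = 0.0471), and the immune-enriched rats 174 and 19.9. The paper already names Siglec5 as a DA-enriched myeloid gene from these TLH libraries, so its TLH call is no independent finding. The receptor Lilra5 was higher in LEW TLH, 99.0 and 144 CPM against 68.4 and 64.9 (0.83 ± 0.21, adjusted p = 0.0271), while the immune-enriched rats had 267 CPM in DA and 230 in LEW.

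Of the MS4A list 1 of 2 tested genes was higher (median 0.56). It was Tmem176a, a related 4-span membrane protein, with 356 and 415 CPM in DA and 851 and 1088 in LEW (log2 difference 1.29 ± 0.18, adjusted p = 0.000435). The immune-enriched rats had Tmem176a at 957 CPM in DA and 1799 in LEW. In nuclei it was not called and overlapped, 199 and 167 CPM in DA against 187 and 320 in LEW. Of 13 hexokinase and glycolysis genes 1 was higher (median 0.14): Hk3, another hexokinase of myeloid cells, at 21.1 and 31.0 CPM in DA and 48.2 and 66.1 in LEW (1.04 ± 0.26, adjusted p = 0.0228). The immune-enriched rats had Hk3 at 98.5 CPM in DA and 89.9 in LEW, and nuclei overlapped, 61.3 and 112 against 85.9 and 81.9. In TLH, Tmem176a and Siglec5 passed under every setting run. Lilra5 and Hk3 did not pass with DESeq2, at adjusted p of 0.205 and 0.224. Lilra5 also failed without DA-1 (0.0598), DA-2 (0.114) or LEW-2 (0.371), and Hk3 without DA-1 (0.0908) or LEW-2 (0.298). The Siglec5 call in nuclei was lost without LEW-1 (0.232) and with DESeq2 (0.157). None of 3 TIMP and metalloproteinase genes (median 0.83) and none of 13 kinases, adaptors and Toll-like receptors around Scimp (median 0.39) passed with edgeR or with DESeq2. At an unadjusted p under 0.05 edgeR counted 2 and 3 of them, all higher in LEW, and DESeq2 0 and 1.

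For each member the 3 genes with the most similar levels were found over the 24 sums of a TLH rat and class. The measures are Pearson correlations of log2(CPM + 1) over points that share libraries and depth, among 10283 genes. Scimp ran with Fcer1g (0.96), Arhgdib and Laptm5 (both 0.93), Ms4a6a with Pld4 and Cd86 (both 0.92) and Ctsh (0.91), and Hk2 with Lpxn (0.93), Epsti1 and Ptprc (both 0.91). AC114233.2 ran with Ftl1 (0.90), Ccl6 (0.89) and Sat1 (0.88), Timp2 with Tnfrsf21 (0.88), Ano6 and Rab32 (both 0.85), and Lilrb3l with AABR07071697.1 (0.87), Cd68 (0.86) and Cd86 (0.84). LOC100360791 ran with RGD1307603 (0.95), AC108595.1 (0.93) and Sult1c2a (0.91).

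Levels were available for RefSeq neighbours of 3 members, Timp2, LOC100360791 and Scimp. Beside Timp2, Usp36 stood at 12.6 and 14.3 CPM in DA and 14.3 and 4.72 in LEW TLH Kupffer cells (log2 difference -0.54 ± 0.46, adjusted p = 0.564), and Cep295nl had 0 UMIs. Samd3 and Tmem200a, on either side of LOC100360791, had 0 UMIs in all 4 rats. Zfp3, next to Scimp, gave 1.05 and 1.79 CPM in DA and 5.35 and 2.83 in LEW, too few counts to test.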

How the data were processed

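Single-cell and single-nucleus counts came from DA and LEW rats and spot counts from Wistar sections. The authors aligned reads with Cell Ranger 3.1.0 (Space Ranger 1.1.0 for sections) to rat genome Rnor 6.0 and deposited, unnormalized, the count of UMIs that each barcode held for each gene. TLH and immune-enriched gene names were taken by row from the nuclei gene list. Cells were filtered on the study's limits of UMIs and mitochondrial share, with 2000 UMIs for LEW TLH in place of the stated 1500, since this leaves the authors' number of cells, and 1163 to 7112 cells per library remained. Classes were gated on distinct markers, with limits set with counts in hand but not on the members' values, and a cell that passed more than 1 gate was left out. No doublet caller was run. The members and gene lists were chosen with earlier results of these data known. T cells, B cells, dendritic cells, erythroid cells and cholangiocyte markers had gates or lists too, and were described where given.

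UMIs were summed per rat and class and divided by the class total for CPM. Each adjusted p is from edgeR 4.0.16 (quasi-likelihood test, TMM, its default filter on low counts, Benjamini-Hochberg over all genes tested) in R 4.3.3, at a threshold of 0.05, over 2 rats per strain and classes of at least 20 cells per rat. p-values measure the spread between these rats only. The steps were tested on simulated data. Intervals are exact 95% Poisson or binomial ones and, like floors of 3 counts, cover counting error only. PCR duplicates were collapsed by UMI. Named beside the members were genes of the related lists past the threshold, the 3 genes most correlated with each member among those with at least 50 UMIs, and its RefSeq neighbours. Alternatives were DESeq2 1.42.0 and its size factors, no filter on low counts, other gates and UMI limits, thinning, a replicate block and leaving out each rat. The replicate block with crossed numbers, the level per UMI of the Kupffer markers and the fit of the DA libraries alone were chosen after seeing the data. The columns carry the replicate numbers 1 and 2, but the deviations of same-numbered rats correlated at -0.186 to 0.080, so the numbers were not taken as pairs.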

Additional observations from a re-analysis of the deposited data

Results flagged for a closer look

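Ms4a6a, the MS4A family gene, had opposite orders of the strains in different cell classes of TLH. The log2 ratio of LEW to DA means was -1.20 in Lyz2 myeloid cells, where both LEW rats lay below both DA rats. It was 1.93 in Kupffer cells, 1.1 in endothelial cells, 0.65 in hepatocytes and 1.05 in mesenchymal cells, where both LEW rats lay above both DA rats. The Lyz2 myeloid value rests on 43 DA and 9 LEW UMIs, and the difference between the classes was not tested. In that class the gene passed the count filter through its DA counts alone. The endothelial value rests on 10 DA and 9 LEW UMIs, the mesenchymal one on 7 and 4 and the hepatocyte one on 68 and 87, and these levels are near those of barcodes below the UMI limit, 5.28 and 4.03 CPM in DA and 8.29 and 9.50 in LEW. Those barcodes can include shallow cells, and what part RNA of other cells has in the values of these 3 classes was not tested. Kupffer-gated cells are where Ms4a6a was chosen as higher in LEW.

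AC114233.2 in nuclei had a log2 ratio of -0.63 in hepatocytes and 0.58 in Kupffer nuclei, with every rat in the opposite order. This difference was not tested either, and in TLH hepatocytes the same gene was higher in LEW. The value of hepatocyte nuclei rests on 33 DA and 32 LEW UMIs, with means of 3.58 and 2.31 CPM. Barcodes below the UMI limit held 4.66 and 8.12 CPM in DA and 6.88 and 12.7 in LEW nuclei libraries. What part RNA of other cells has in the hepatocyte value was not tested. The counting interval given above for Kupffer nuclei includes no difference between the strains.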

How the results depend on the processing

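No called result turned its direction. Hk2 in Kupffer nuclei, not called, had a log2 ratio of 0.14 that became -0.22 under the stricter gate and -0.33 without DA-1. The 7 members stayed higher in LEW Kupffer cells in TLH and the immune-enriched rats under every setting run. In nuclei the 4 members with both LEW rats above both DA rats became 2 under the stricter gate, and 4 to 5 without each rat. Of 5 TLH calls of members outside Kupffer cells, 3 were left with the replicate number as a block, where LOC100360791 in NK-like cells (adjusted p = 0.0604) and AC114233.2 in hepatocytes (0.101) were lost. There were 10 calls of 34 pairs with no filter on low counts, and 2 calls of 20 in nuclei. Of all genes, 146 of 13433 were then higher in LEW in TLH endothelial cells and 490 of 15693 in hepatocytes. The numbers were 34 of 10915 in Lyz2 myeloid, 42 of 12599 in mesenchymal and 39 of 11069 in NK-like cells. In nuclei they were 58 of 14380 for endothelial, 209 of 17666 for hepatocyte and 34 of 13481 for mesenchymal nuclei. Without DA-1 the call of LOC100360791 in mesenchymal cells was lost (adjusted p = 0.0745). Of the 4 related genes called in TLH, the count was 2 with DESeq2, 7 with no filter, and 2 to 4 without each rat, with the 2 reached without LEW-2. In nuclei the count of 1 became 0 with DESeq2, where 3 had an unadjusted p under 0.05, and 0 to 1 without each rat, with the 0 reached without LEW-1. Same-numbered TLH Kupffer sums correlated at -0.116, and with the numbers crossed the block gave 9 related genes and 7 calls of members. In TLH Kupffer cells the crossed block called 415 genes higher and 487 lower of 6768, against 203 and 252 without a block. It called more of all genes in every other class too, such as 56 and 106 of 2417 against 18 and 31 in NK-like cells. With no filter on low counts, 290 genes were higher and 405 lower of 13596 in TLH Kupffer cells. The comparison of Kupffer with other DA cells gave 20 to 23 calls in TLH and 9 to 10 in nuclei under all settings, 23 and 9 with no replicate block, and 20 of 25 and 9 of 9 pairs with the DA libraries alone. With 2 rats per strain and 36 to 62 Kupffer nuclei, small strain differences were not detectable. The causes of these changes were not tested.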
